A study of Rattus norvegicus with 24 samples.

Results

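Chloride cotransporters and sodium pump beta subunits were followed through rat brain tissue 3 months after traumatic brain injury (TBI). The 6 genes are Slc12a2, Slc12a4, Slc12a5, Slc12a7, Atp1b1 and Atp1b2. Each was taken as the locus of the count table that carries its name, and each name had 1 locus, so that 6 of the 26641 named loci (42334 loci in all) are described. Slc12a4 shares its locus with Lcat, the gene of a plasma enzyme that esterifies cholesterol. Fragments of these neighbours cannot be told apart, and each value given for Slc12a4 is the value of the joined locus.

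Neurons and glia set their internal chloride with cation-coupled cotransporters of the Slc12 family. NKCC1, the product of Slc12a2, carries sodium, potassium and chloride into the cell, while KCC2, the neuronal product of Slc12a5, carries potassium and chloride out, and the balance between them sets whether GABA inhibits a neuron. Slc12a4 (KCC1) and Slc12a7 (KCC4) encode further potassium-chloride exporters that serve cell volume control in many tissues. The cotransporters run on the gradients that the sodium pump builds. The pump joins a catalytic alpha subunit to a beta subunit that brings it to the membrane. Atp1b1 encodes the beta subunit found mainly on neurons, and Atp1b2 a beta subunit of glia that was also described as an adhesion molecule.

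Adult male Sprague-Dawley rats were either injured by lateral fluid percussion, in which a pressure pulse strikes the exposed dura over 1 hemisphere, or sham-operated with the same anaesthesia and surgery but no impact. The perilesional cortex and the ipsilateral thalamus were dissected from each rat, and polyadenylated RNA was sequenced as 1 stranded library per rat and region, from 6 TBI rats (22, 24, 45, 52, 56 and 63) and 6 sham-operated controls (26, 32, 34, 38, 50 and 55), 24 libraries in all. The injured rats had been picked for a chronic inflammatory state around the lesion seen by imaging, so they stand for that subset of injured animals. All tissue pieces of a region were pooled per rat, and both regions of a rat carry its number.

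The values are normalized counts, which are fragment counts divided by 1 size factor per library. The libraries held 30568927 to 54608922 fragments, recovered from the step between low values. The table gives no transcript lengths, so levels are compared between groups and never between genes. The regions matched their labels. The summed count of 7 cortex identity markers was 63687 to 82183 in cortex and 5231 to 13985 in thalamus, and that of 8 thalamus identity markers was 3900 to 4949 in cortex and 64898 to 123439 in thalamus. The libraries of rat 45 stood apart among TBI rats by choroid plexus transcripts, with a summed count of 10 markers of 34932 in cortex and 285552 in thalamus, against 992 to 1334 and 919 to 2264 in the other TBI rats. Among sham-operated controls this sum reached 24820 in the cortex of rat 26 and 115208 in the thalamus of rat 50. Values without rat 45 are therefore given where they bear on a result.

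The sequences upstream of the 4 cotransporter genes are shown because their calls after TBI differed. Slc12a4 was called higher in both regions and Slc12a7 in cortex only, while Slc12a5 was called lower in thalamus only. The sequences are the 150 bases before the RefSeq start of each gene, in the build GRCr8, and run 5′ to 3′ toward the start. Capitals mark the letters GGGCGG (a GC box) or CACGTG (an E-box), on either strand, with overlapping matches counted separately.
Slc12a2, chr18:53546183-53546332, plus strand: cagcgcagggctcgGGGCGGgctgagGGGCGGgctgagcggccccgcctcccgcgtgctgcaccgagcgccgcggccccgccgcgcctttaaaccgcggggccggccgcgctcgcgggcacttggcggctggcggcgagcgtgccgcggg
Slc12a4, chr19:50770123-50770272, minus strand: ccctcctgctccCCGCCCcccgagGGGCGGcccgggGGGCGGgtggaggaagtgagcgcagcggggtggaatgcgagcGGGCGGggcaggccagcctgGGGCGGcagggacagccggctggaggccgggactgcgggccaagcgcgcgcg
Slc12a5, chr3:174115683-174115832, plus strand: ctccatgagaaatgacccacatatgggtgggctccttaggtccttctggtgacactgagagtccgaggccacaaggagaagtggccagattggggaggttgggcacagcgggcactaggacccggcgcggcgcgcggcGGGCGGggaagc
Slc12a7, chr1:31354626-31354775, minus strand: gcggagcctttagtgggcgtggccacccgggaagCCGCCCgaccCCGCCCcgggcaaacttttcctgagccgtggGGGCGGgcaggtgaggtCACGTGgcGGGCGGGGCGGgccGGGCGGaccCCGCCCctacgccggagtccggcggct

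The GC box occurred 2 times before Slc12a2, 5 times before Slc12a4, 1 time before Slc12a5 and 7 times before Slc12a7. At least 1 match was present in 26% of 33469 RefSeq promoter windows of this length. The E-box occurred once in the set, before Slc12a7, and in 3.74% of all windows. RefSeq held the promoter of 5 of the 6 genes. The window of Atp1b2 had 1 GC box and was the only one of the 5 with the letters TATAAA, which occurred in 8.00% of all windows. A match of letters is a description and was not tested as a site. The deposited table states no build and lists the Slc12a4 locus at chr19:48780321-48805888 and the Slc12a5 locus at chr3:167610335-167683424.

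In the perilesional cortex, TBI rats had more Slc12a4, Slc12a7 and Atp1b2 transcript and less Atp1b1 transcript than sham-operated controls. By limma with Benjamini-Hochberg adjustment over all 15493 named loci tested, 3 of the 6 genes were higher, against 14.3% of loci, and 1 was lower, against 14.9%. The values of 3 genes did not overlap between the groups, which held for 12.5% of loci. In the ipsilateral thalamus, Slc12a4 and Atp1b2 were higher and Slc12a5 and Atp1b1 were lower. These were 2 of 6 genes higher, against 14.5% of 15564 loci, and 2 lower, against 20.9%, and the values of 4 genes did not overlap, against 18.2%. The thalamic split over all loci was 2259 higher and 3257 lower, and it became 2635 and 2433 with upper quartile scaling, which changed no call of the 6 genes. The median log2 fold change of the 6 genes was 0.05 in cortex and 0.24 in thalamus, against -0.01 and -0.02 over all loci. In whole tissue, fewer cells of a type and less RNA per cell cannot be told apart.

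**Figure D1:**
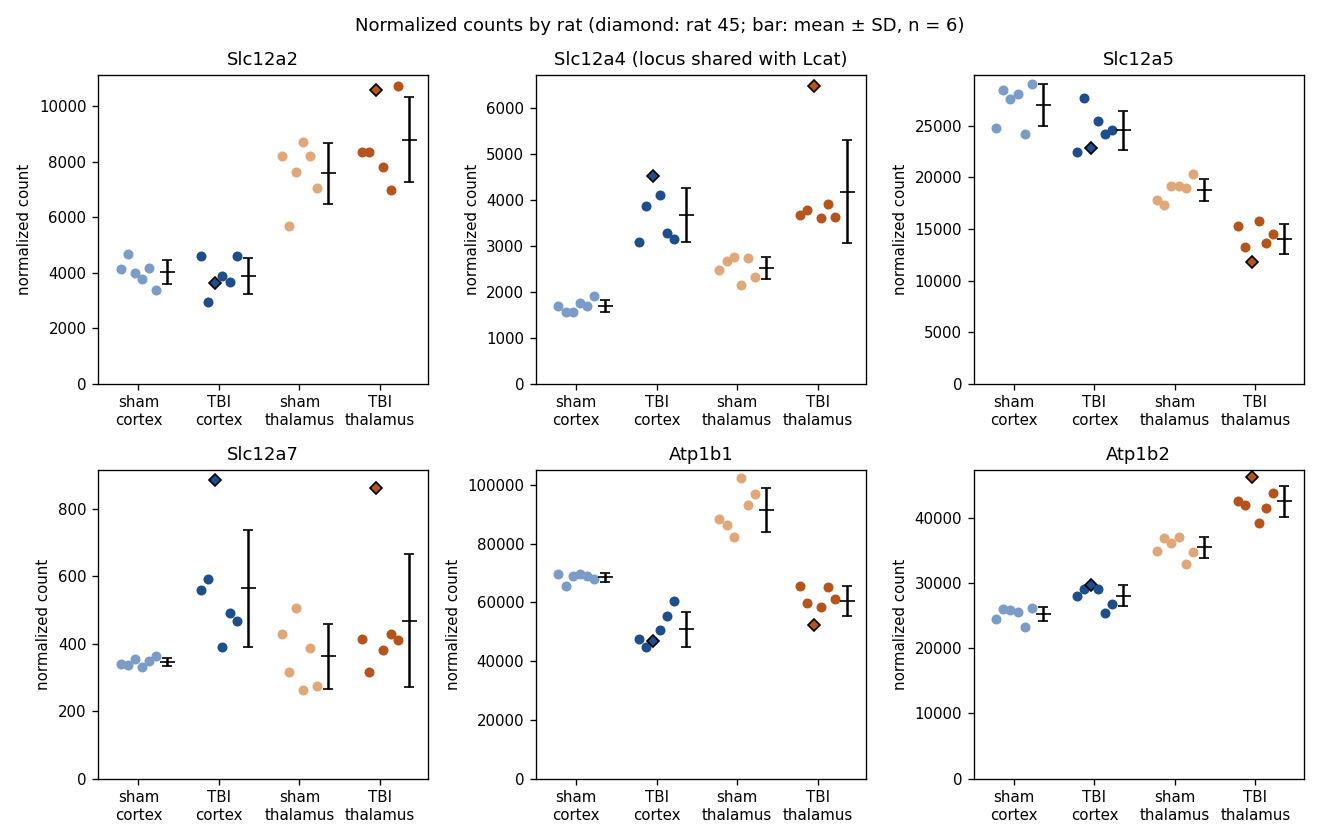
Normalized counts of the 6 genes (y axes, from 0) in each of the 24 libraries by group (x axes). Points are rats, diamonds mark rat 45, and bars give the mean ± SD of 6 rats. All TBI points of Slc12a4 lie above all sham points of the same region, and all TBI points of Atp1b1 lie below them.

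Slc12a5, the chloride exporter of neurons, was lower after TBI in the thalamus. Its normalized count there was 17308 at the lowest, 19081 at the median and 20347 at the highest in sham-operated controls. In TBI rats the values were 11819, 14076 and 15808, with the lowest in rat 45. Each of the 6 TBI rats lay below each control. This was a log2 fold change of -0.42 ± 0.07 (SE, n = 6 rats per group), a mean level 0.748 times that of controls, with an adjusted p of 0.000304 by limma. Without rat 45 it was -0.37, with an adjusted p of 0.00025.

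In the cortex Slc12a5 spanned 24178 to 29068 in controls, with a median of 27844, and 22446 to 27710 in TBI rats, with a median of 24402. The groups overlapped. A log2 fold change of -0.14 ± 0.06 had a 95% interval of -0.27 to -0.01 and an adjusted p of 0.102, and it passed the threshold (adjusted p = 0.0365) only without TBI rat 24, which had the highest value of its group. The difference of the TBI effect, thalamus minus cortex, was -0.29 on the log2 scale (95% interval -0.48 to -0.09), with an adjusted p of 0.0634 in the limma interaction test.

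Most neuronal marker transcripts were called lower after TBI in both regions, while Slc12a5 was called lower in thalamus only. Of 10 neuronal markers, 8 were lower in the thalamus of TBI rats and 6 in the cortex, against 20.9% and 14.9% of loci, and 0 were higher in either region. Their median log2 fold change was -0.39 in thalamus and -0.21 in cortex. Their summed count was 252462 to 298397 in the thalamus of controls and 181068 to 228073 in that of TBI rats. In cortex it was 388873 to 418157 in controls and 297190 to 374406 in TBI rats. The TBI rat with the lowest cortical sum (rat 24, 297190) had the highest Slc12a5 count of its group (27710). None of the 10 was at or under 3 fragments in all libraries of a group. The part of these markers in the change of Slc12a5 was not tested.

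Slc12a2, the chloride importer, was not called in either region. In the cortex it spanned 3359 to 4688 in controls, with a median of 4049, and 2944 to 4618 in TBI rats, with a median of 3763. In the thalamus the values were 5674, 7917 and 8692 in controls and 6988, 8347 and 10739 in TBI rats. The groups overlapped in both regions, and TBI rats 45 and 63 lay above all controls in the thalamus. TBI against sham gave a log2 fold change of -0.06 ± 0.10 in cortex (95% interval -0.28 to 0.16, adjusted p = 0.699) and 0.21 ± 0.12 in thalamus (95% interval -0.04 to 0.46, adjusted p = 0.182). These intervals allow changes in either direction. Without rat 45 the limma log2 fold change of Slc12a2 was -0.04 in cortex (adjusted p = 0.807) and 0.15 in thalamus (adjusted p = 0.332).

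The ratio of Slc12a5 to Slc12a2 within a library does not depend on the scaling between libraries, and it was lower after TBI in the thalamus. There it was 2.18 to 3.05 in controls, with a median of 2.41, and 1.12 to 2.03 in TBI rats, with a median of 1.71. No TBI rat reached the lowest control. The mean log2 ratio was 1.32 ± 0.20 (SD, n = 6) in controls and 0.69 ± 0.34 in TBI rats, a difference of -0.64 with p = 0.00216 by a two-sided exact permutation test (adjusted p = 0.00289 over 4 ratio tests). This is the smallest p that 6 against 6 rats can give. Without rat 45, which had the lowest ratio, the difference was -0.53. In the cortex the ratio was 5.78 to 8.65 in controls and 4.90 to 9.41 in TBI rats, and the difference of -0.08 had an exact permutation p of 0.632. The ratio is one of whole tissue and does not give the balance within neurons. Neuronal markers also fell in the thalamus (median log2 fold change -0.39), and their part in the ratio was not tested.

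**Figure D2:**
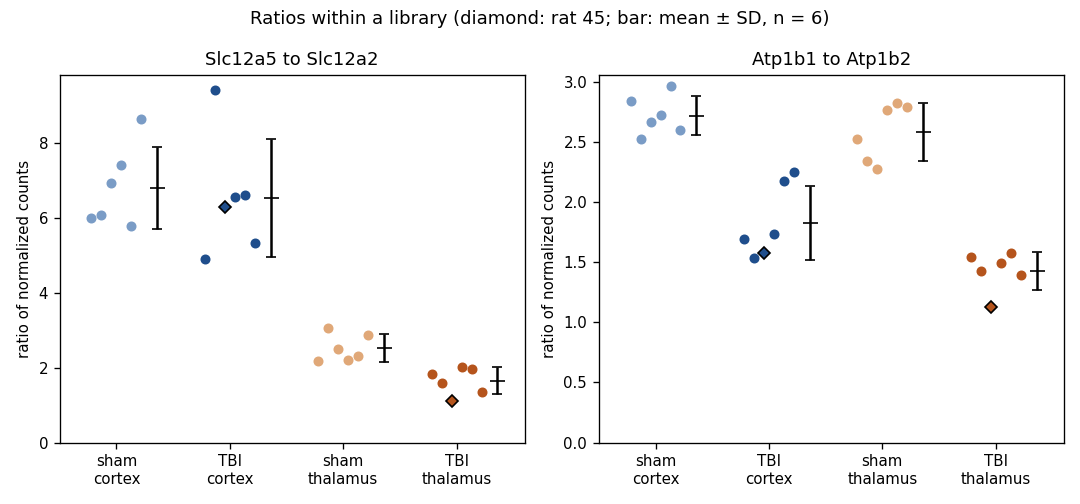
Ratio of normalized counts within a library (y axes, from 0) for Slc12a5 to Slc12a2 and for Atp1b1 to Atp1b2 in the 4 groups (x axes). Points are rats, diamonds mark rat 45, and bars give the mean ± SD of 6 rats. The thalamic ratio of Slc12a5 to Slc12a2 reaches at most 2.03 in TBI rats and is at least 2.18 in controls, while in cortex the groups overlap.

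Of the other exporters among the 6 genes, Slc12a4 was higher in both regions and Slc12a7 in cortex. Slc12a4 had the largest change of the 6 genes in both regions. Its locus had a normalized count of 1551 to 1910 in the cortex of controls, with a median of 1696, and of 3072 to 4520 in that of TBI rats, with a median of 3574. The lowest TBI rat (22) lay well above the highest control (55). Limma gave a log2 fold change of 1.10 ± 0.09, a mean level 2.16 times that of controls, with an adjusted p of 2.84e-06.

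In the thalamus the Slc12a4 locus had 2156 to 2766 in controls, with a median of 2565. The TBI rats had 3599 to 6473, with a median of 3730. Rat 45 had the value of 6473, and the other 5 TBI rats lay between 3599 and 3917, above all controls. The log2 fold change was 0.70 ± 0.13 with an adjusted p of 0.0007, and 0.57 with an adjusted p of 2.15e-05 without rat 45. The difference of the TBI effect, thalamus minus cortex, was -0.40 ± 0.17 on the log2 scale (adjusted p = 0.151), and it passed the threshold without rat 45 (-0.47, adjusted p = 0.0107).

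Slc12a7 (KCC4) was higher after TBI in the cortex. Controls had 330 to 364 in the cortex, with a median of 344, and TBI rats had 392 to 886, with a median of 525. All 6 TBI rats were above all controls, rat 45 farthest. A log2 fold change of 0.66 ± 0.14 was found, with an adjusted p of 0.00347, and 0.52 with an adjusted p of 0.00157 without rat 45.

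In the thalamus Slc12a7 had 262 to 507 in controls and 315 to 862 in TBI rats, with medians of 353 and 412. Only rat 45 exceeded all controls. The log2 fold change of 0.33 ± 0.22 had an adjusted p of 0.268, and it was 0.14 (adjusted p = 0.558) without rat 45. The difference of the TBI effect, thalamus minus cortex, was -0.33 ± 0.28 with an adjusted p of 0.525.

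The choroid plexus, the epithelium that secretes cerebrospinal fluid, is known for abundant ion transporters, and its transcripts were set beside these values. The library with the highest choroid plexus sum, the thalamus of rat 45, also had the highest count of Slc12a4 and the second highest of Slc12a7. The sham thalamus of rat 50, with a sum of 115208, had 2731 for Slc12a4 and 389 for Slc12a7, both within the range of the other controls. The sham thalamus of rat 34, with a sum of 73537, had 2766 and 507, the highest of the controls. Of the 10 choroid plexus markers, 0 were called in either region by limma or by edgeR, and 1 in cortex and 0 in thalamus had an unadjusted limma p under 0.05. Over all loci limma called 14.3% higher and 14.9% lower in cortex, and 14.5% and 20.9% in thalamus. The sum ran from 919 to 285552 in TBI thalamus and from 760 to 115208 in sham thalamus. With such a spread these tests could hardly call the markers, and nothing is concluded from the counts of 0. None of the 10 was at or under 3 fragments in all libraries of a group. Leaving out rat 45 ended neither call for Slc12a4 and not that for Slc12a7 in cortex. The part of choroid plexus in these values was not tested.

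**Figure D3:**
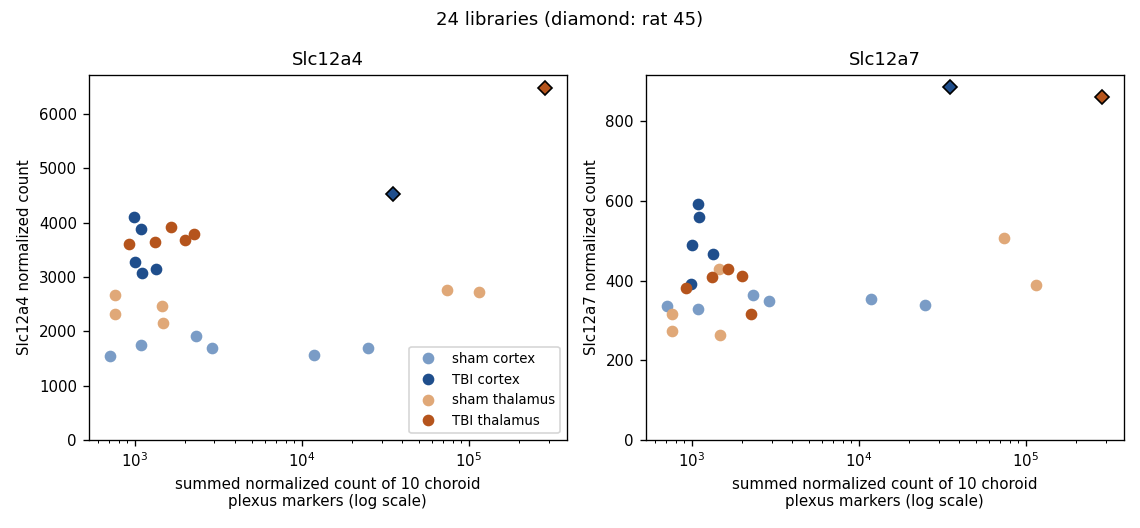
Normalized counts of Slc12a4 and Slc12a7 (y axes, from 0) against the summed normalized count of 10 choroid plexus markers (x axes, log scale) in 24 libraries, coloured by group, with diamonds for rat 45. The 5 TBI cortex libraries with sums of 992 to 1334 lie above the sham cortex libraries for Slc12a4, and both libraries of rat 45 lie at the top for both genes.

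Microglial transcripts were set beside these exporters too. The log2 fold changes of Slc12a4 were 1.10 in cortex and 0.70 in thalamus. Those of Slc12a7 were 0.66 in cortex and 0.33, not called, in thalamus. With all rats, the interaction test between the regions called neither gene. The microglial markers had their larger median change in thalamus. Of 10 microglial markers, 9 were higher in the cortex and 10 in the thalamus of TBI rats, against 14.3% and 14.5% of loci, with median log2 fold changes of 0.63 and 1.02. Their summed count was 12196 to 13264 in the cortex of controls against 17547 to 20879 in that of TBI rats, and 13577 to 17708 against 28204 to 36564 in the thalamus. By the interaction test 6 of the 10 microglial markers rose more in the thalamus than in the cortex, against 7.26% of 15678 loci called in either direction. The part of microglia in these values was not tested.

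Atp1b1, the neuronal pump beta subunit, was lower after TBI in both regions. In the cortex controls lay close together, from 65541 to 69748 with a median of 68958, and TBI rats ranged from 44682 to 60374 with a median of 48976. In the thalamus controls had 82163 to 102320 with a median of 90678, and TBI rats 52158 to 65660 with a median of 60447. The groups did not overlap in either region, and the lowest thalamic value was that of rat 45. The spread of the cortex values was 2.28% of the mean in controls and 11.7% in TBI rats.

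For Atp1b1 the log2 fold change was -0.44 ± 0.07 in cortex (adjusted p = 0.000248) and -0.60 ± 0.07 in thalamus (adjusted p = 3.13e-05). The mean levels were 0.743 and 0.660 times those of controls. Without rat 45 the changes were -0.41 and -0.56. The difference of the TBI effect, thalamus minus cortex, was -0.16 ± 0.10 on the log2 scale, with an adjusted p of 0.342. The falls of the neuronal markers given with Slc12a5 stand beside those of Atp1b1 as well.

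Atp1b2, the glial beta subunit, went up where Atp1b1 went down. In the thalamus it had 32902 to 37003 in controls, with a median of 35543, and 39139 to 46200 in TBI rats, with a median of 42228. Each TBI rat lay above each control. The log2 fold change was 0.26 ± 0.05, a mean level 1.20 times that of controls, with an adjusted p of 0.00148, and 0.24 with an adjusted p of 0.00212 without rat 45.

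The cortical change of Atp1b2 was smaller and less secure. Controls had 23260 to 26165, with a median of 25717, and TBI rats 25437 to 29678, with a median of 28556. The groups overlapped in TBI rat 56, and the other 5 TBI rats lay above all controls. The log2 fold change was 0.15 ± 0.05 with an adjusted p of 0.0283. The adjusted p rose to between 0.0515 and 0.0666 when TBI rat 24, 45 or 52 or sham rat 26 or 50 was left out, and to 0.0501 with no filter on low values.

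Part of the astrocyte transcripts moved with Atp1b2. Of 10 astrocyte markers, 5 were higher in each region (Gfap, Aqp4, Aldh1l1, Gja1 and S100b), against 14.3% of loci in cortex and 14.5% in thalamus. In cortex 1, the glutamate transporter Slc1a2, was lower, against 14.9% of loci, and 4 were not called. In thalamus 0 were lower and 5 were not called. Their median log2 fold change was 0.23 in cortex and 0.35 in thalamus. Their summed count was 233768 to 258999 in the thalamus of controls against 357352 to 418850 in that of TBI rats, and 327907 to 354136 against 368240 to 416537 in the cortex. The part of these markers in the change of Atp1b2 was not tested.

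The ratio of Atp1b1 to Atp1b2 separated TBI rats from controls in both regions. In the cortex it was 2.53 to 2.97 in controls, with a median of 2.69, and 1.54 to 2.25 in TBI rats, with a median of 1.71. In the thalamus it was 2.27 to 2.83 against 1.13 to 1.58, with medians of 2.65 and 1.46. The difference of the mean log2 ratio was -0.59 in cortex and -0.86 in thalamus, each with p = 0.00216 by a two-sided exact permutation test (adjusted p = 0.00289), the smallest that 6 against 6 rats allow. Without rat 45 the differences were -0.55 and -0.80. In thalamus each gene alone separated the groups, in opposite directions, so the separation of the ratio and its p there follow from those results. This is a ratio of whole tissue, and the part of cell type markers in it was not tested.

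None of the 6 genes passed the limma interaction test for a TBI effect that differed between thalamus and cortex, which called 7.26% of 15678 loci. At an unadjusted p under 0.05 there were 2 (Slc12a4 and Slc12a5), and edgeR on recovered fragments called 0. With the rat as a block the adjusted p was 0.057 for Slc12a4 and 0.0539 for Slc12a5. Slc12a5 passed without TBI rat 22 (adjusted p = 0.0368) or sham rat 32 (0.0461).

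Without injury, most of the 6 genes differed between the regions. In sham-operated controls 4 were higher in thalamus, against 33.9% of 15582 loci, and 1 was lower, against 28.3%. Slc12a2 was higher in thalamus by 0.91 ± 0.10 on the log2 scale (adjusted p = 6.29e-07), a mean of 7576 ± 1089 (SD, n = 6) against 4019 ± 442. The log2 difference, thalamus minus cortex, was 0.57 for Slc12a4, 0.41 for Atp1b1, 0.49 for Atp1b2 and -0.52 ± 0.06 for Slc12a5. For Slc12a7 it was 0.03 ± 0.14 with an adjusted p of 0.861. Oligodendrocyte markers were higher in thalamus too, 9 of 9 tested in controls and in TBI rats. Their median log2 difference was 1.55 in controls. Of 10 neuronal markers in controls, 3 were higher and 6 lower in thalamus. Their summed count was lower there (252462 to 298397 against 388873 to 418157), while Atp1b1 was higher. Of 10 astrocyte markers, 5 were higher and 3 lower. The astrocyte sum was lower in thalamus (233768 to 258999 against 327907 to 354136), while Atp1b2 was higher. The part of these cell types was not tested.

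In TBI rats 3 of the 6 were higher in thalamus, against 31% of 15737 loci, and 1 was lower, against 26.5%. The log2 difference, thalamus minus cortex, was 1.18 ± 0.12 for Slc12a2, 0.60 ± 0.06 for Atp1b2, 0.25 ± 0.08 for Atp1b1 and -0.81 ± 0.07 for Slc12a5. The call for Atp1b1 (adjusted p = 0.0166) was lost without TBI rat 22 (0.0783) or 24 (0.0572). The Slc12a4 locus differed by 0.17 ± 0.14 with an adjusted p of 0.322. Slc12a7 differed by -0.30 ± 0.22 with an adjusted p of 0.271, which became 0.0397 with the rat as a block and 0.0207 without rat 45.

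The order of the 4 groups differed by gene. Slc12a5 fell from sham cortex (mean 27029 ± 2052) over TBI cortex (24553 ± 1913) and sham thalamus (18808 ± 1084) to TBI thalamus (14066 ± 1457), and only the cortex groups overlapped. Atp1b2 rose from sham cortex (25217 ± 1125) over TBI cortex (28022 ± 1625) and sham thalamus (35429 ± 1556) to TBI thalamus (42507 ± 2372), again with overlap only in cortex. Atp1b1 was highest in sham thalamus (91515 ± 7401). Its next groups, sham cortex (68479 ± 1559) and TBI thalamus (60406 ± 5002), overlapped, as did TBI thalamus and TBI cortex (50862 ± 5976). For Slc12a4 the TBI groups overlapped at the top, and for Slc12a7 each neighbour in the order overlapped with the next.

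Of the other members of both families reported here, 3 cotransporters and 2 pump subunits were tested. Slc12a9, whose locus is joined with Trip6, was higher in both regions, with log2 fold changes of 0.43 ± 0.09 in cortex and 0.32 ± 0.08 in thalamus. Slc12a3 and Slc12a8 had group means of 19.0 to 36.3 and were not called in either region. Slc12a1 was not analysed here.

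Among pump subunits, the third beta subunit, Atp1b3, was higher in thalamus (log2 fold change 0.38 ± 0.06, adjusted p = 0.000348) and had a log2 fold change of 0.08 ± 0.07 in cortex. The call for its difference between regions (0.30 ± 0.09, adjusted p = 0.0462) was lost when any of 9 rats was left out.

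Atp1a4, known as an alpha subunit of sperm, was near the limit of detection. It was called higher in cortex (log2 fold change 1.67 ± 0.55, adjusted p = 0.0336), with 2.23 to 23.8 in controls and 9.34 to 60.8 in TBI rats, but the call was lost in 9 of 21 alternatives. The adjusted p was 0.0842 with all libraries in 1 fit, 0.0501 by edgeR and 0.0541 to 0.0775 without sham rat 26, 32, 34, 38 or 50 or TBI rat 52 or 63. Atp1b4 lay at or under 3 fragments in all libraries and was not tested.

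**Figure D4:**
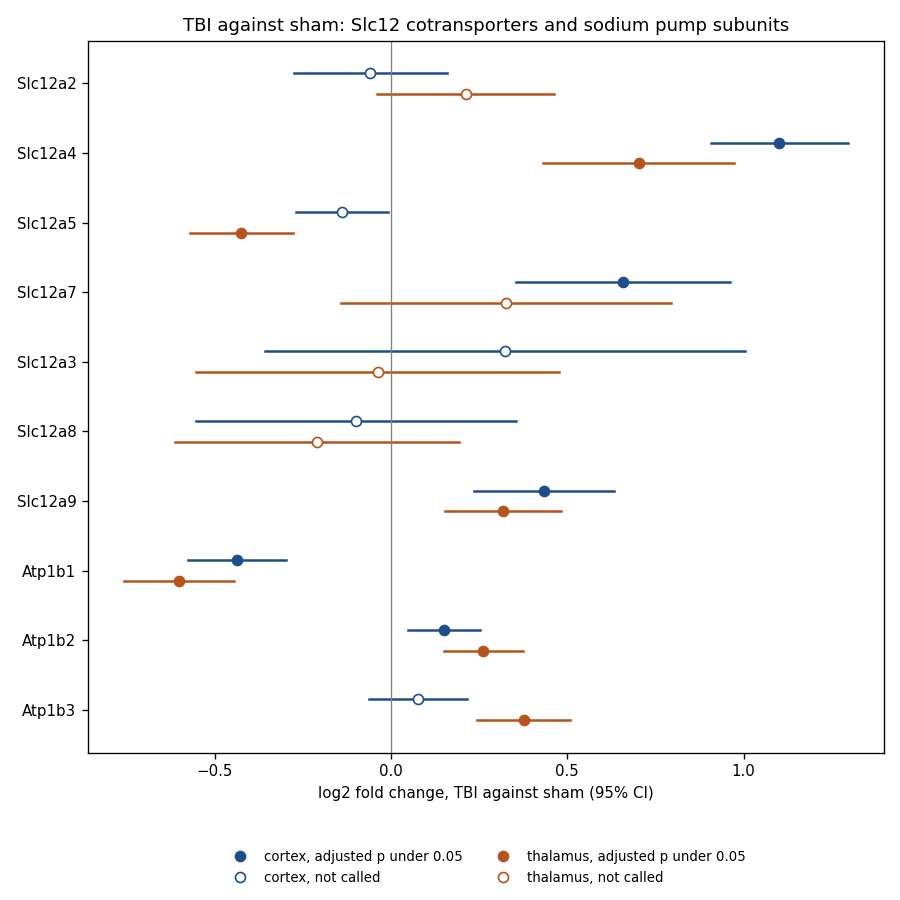
Log2 fold change of TBI against sham-operated rats (x axis, lines are 95% intervals from limma, n = 6 rats per group) for Slc12 cotransporters and sodium pump subunits (y axis), in cortex (blue) and thalamus (orange). Filled points passed an adjusted p of 0.05, and Atp1a4 and Atp1b4, which were near the limit of detection, are not drawn. Atp1b1 passed the threshold on the left of 0 and Slc12a4 on the right of 0 in both regions, and Atp1b3 passed it in thalamus.

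The FXYD proteins are small membrane proteins that tune the pump. Of 5 tested genes of this family, 3 were higher in cortex and 4 in thalamus, against 14.3% and 14.5% of loci, and 0 were lower. Fxyd1 (phospholemman) was 928 to 1185 in the cortex of controls and 1573 to 2602 in that of TBI rats, a log2 fold change of 1.02 ± 0.10 (adjusted p = 1.05e-05), and its log2 fold change in thalamus was 0.76 ± 0.11. Those of Fxyd3 were 0.47 ± 0.09 in cortex and 0.77 ± 0.11 in thalamus, and those of Fxyd5 (dysadherin) 0.46 ± 0.11 and 0.72 ± 0.12. The median log2 fold change of the family was 0.46 in cortex and 0.72 in thalamus. Among the NKAIN proteins, which bind the pump, 1 of 3 tested was called, Nkain4 in cortex (log2 fold change 0.39 ± 0.08, adjusted p = 0.00264).

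The WNK kinases activate SPAK (Stk39) and its relative Oxsr1, which phosphorylate the cotransporters, turning NKCC1 on and KCC exporters off. Of 7 tested genes of this cascade, 4 were lower in cortex (Wnk3, Stk39, Cab39 and Cab39l), against 14.9% of loci, 2 were lower in thalamus (Wnk2 and Cab39), a share near the 20.9% of loci, and 0 were higher. Stk39 was 3182 to 3963 in the cortex of controls and 2514 to 3255 in that of TBI rats, a log2 fold change of -0.29 ± 0.07 (adjusted p = 0.00467). In thalamus it was -0.29 ± 0.12 with an adjusted p of 0.0769, and -0.41 with an adjusted p of 0.00226 without rat 45, which had 6212 against 3597 to 4380 in the other TBI rats. Cab39, an adaptor that activates these kinases, was lower in both regions, with log2 fold changes of -0.31 ± 0.07 in cortex and -0.28 ± 0.06 in thalamus. Wnk2 was lower in thalamus, with a log2 fold change of -0.52 ± 0.09, and had -0.09 ± 0.09 in cortex. The interaction test between the regions called 0 of these 7 genes, Wnk2 included, against 7.26% of 15678 loci.

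Of 15 chloride channel genes, 1 was higher and 5 were lower in cortex, against 14.3% and 14.9% of loci. In thalamus 1 was higher and 1 lower, shares below the 14.5% and 20.9% of loci. Cftr, the cyclic AMP-gated channel, was 197 to 306 in the cortex of controls and 111 to 177 in that of TBI rats, a log2 fold change of -0.81 ± 0.13 (adjusted p = 0.000442, and 0.0612 with all 24 libraries in 1 fit), and in thalamus its counts were 9.55 to 61.1. Lrrc8b, a subunit of the volume-regulated anion channel, was lower in cortex, with a log2 fold change of -0.46 ± 0.07 against 0.03 ± 0.07 in thalamus. The calcium-activated channel Ano1 was higher in both, with log2 fold changes of 0.42 ± 0.10 and 0.54 ± 0.16.

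Of 9 tested anion exchangers and carbonic anhydrases, 3 were lower in cortex, against 14.9% of loci. In thalamus 4 were lower, against 20.9%, and 2 were higher, a share near the 14.5% of loci. Car7, the carbonic anhydrase of mature neurons, was 820 to 1307 in the thalamus of controls and 548 to 756 in that of TBI rats, a log2 fold change of -0.74 ± 0.12 (adjusted p = 0.000445), and its log2 fold change in cortex was -0.24 ± 0.06, a call lost with all 24 libraries in 1 fit (adjusted p = 0.078). Slc4a3, an anion exchanger of neurons, was lower in thalamus, with a log2 fold change of -0.49 ± 0.07. Slc4a2, whose locus is joined with Cdk5, was lower in both regions, with log2 fold changes of -0.15 ± 0.05 in cortex and -0.33 ± 0.05 in thalamus. The cortical call for Slc4a2 (adjusted p = 0.0322) was lost when any of 6 libraries was left out and with upper quartile scaling (0.0536).

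**Figure D5:**
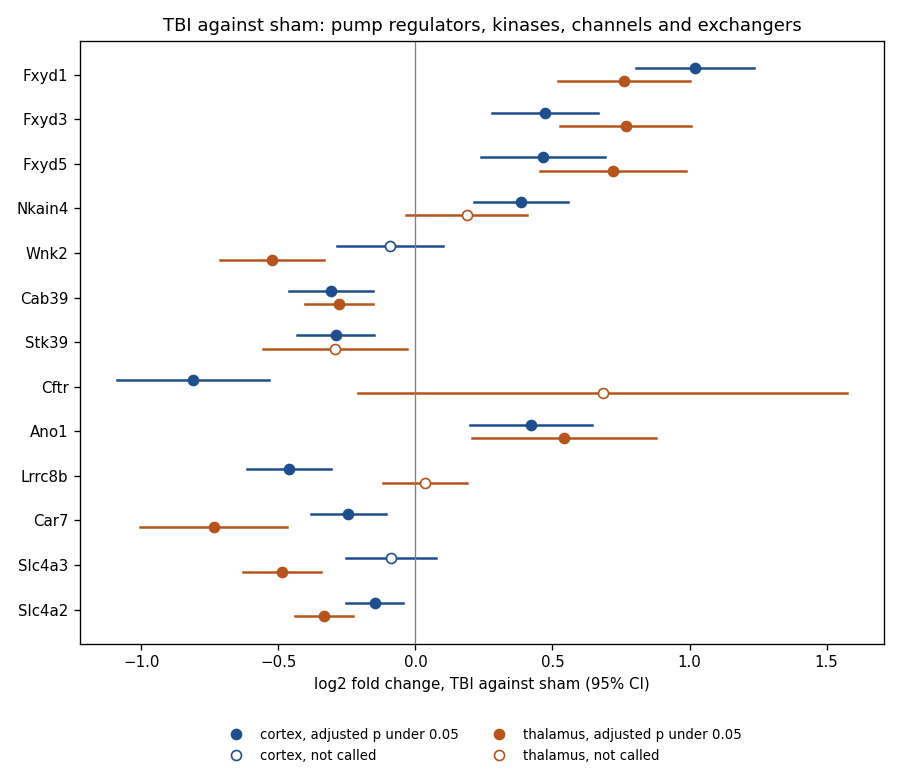
Log2 fold change of TBI against sham-operated rats (x axis, lines are 95% intervals from limma, n = 6 rats per group) for 13 pump regulators, kinases, chloride channels and exchangers (y axis), in cortex (blue) and thalamus (orange). Filled points passed an adjusted p of 0.05. The 3 Fxyd genes lie to the right of 0 and Cab39 and Car7 to the left in both regions.

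Finally, the genes whose variation between rats was most like that of each member were listed from the deviations of 24 libraries from their 4 group means. The libraries of a rat share that animal, and the correlations are a description. Slc12a4 was most like Fcgrt (Pearson r = 0.90), Ggcx (0.90) and Antxr2 (0.89), and Slc12a7 most like Parp3 (0.94), Tcn2 (0.91) and 1500009L16Rik (0.89). Between the members, the highest value was that of Slc12a4 and Slc12a7, at 0.73, and both went against Atp1b1, at -0.62 and -0.64. The libraries of rat 45 had the highest Slc12a4 and Slc12a7 counts of their group, and the lowest Atp1b1 count of theirs in thalamus. Slc12a5 was most like PIP5K1C (0.92), Scamp5 (0.92) and Ube2o (0.91), and Atp1b1 most like Nceh1 (0.92), Ube2j1 (0.92) and Ube2l3 (0.92). Slc12a2 was most like Ccp110 (0.94), Erbb2ip (0.93) and D14Abb1e (0.92). Atp1b2 had no such close companion, with Trpv3 (0.78), Ikbkb (0.77) and Tmem150a (0.75), and its value with Atp1b1 was -0.47.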

How the data were processed

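Polyadenylated RNA of perilesional cortex and ipsilateral thalamus was sequenced in 6 TBI and 6 sham-operated rats, 24 libraries. The authors aligned the reads with TopHat 2.0.11 and Bowtie2 2.2.2 and assembled transcripts with Cufflinks 2.2.1 guided by Ensembl Rnor_5.0. The methods name the genome RGSC3.4, and the program that wrote the table is not given in the sources used here. The deposited values are a signal that the authors scaled, namely fragment numbers over a size factor of each library, called normalized counts. In 23 libraries at least 99.4% of values were whole multiples of 1 fragment (tolerance 0.05 fragments). In the sham thalamus library of rat 55 the step was too near 1 to be checked, and it was left out of the count test. Loci without a name (15693, with 1.90% to 2.23% of normalized counts) were not tested.

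Groups were taken from the labels. The main test of TBI against sham-operated rats was limma-trend (limma 3.58.1, R 4.3.3), run after adding 1 to the normalized counts and taking log2. Named loci averaging 10 or more across the libraries compared entered it, and a Benjamini-Hochberg adjusted p under 0.05 was a call. Region differences used the same fit, and the difference of the TBI effect an interaction contrast over 24 libraries, without a block for the rat. Fold changes on this scale understate the change of low genes. Ratios were tested by an exact permutation test over all splits of the 12 rats. Both regions come from the same animals, as the numbers in the labels and the dissection described in the methods give. Once group means were taken out, cortex and thalamus of 1 rat correlated at a median of 0.187 (0.00393 to 0.569), with 10 of 12 over 0.1, against -0.0332 between different rats.

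The 6 genes and all lists were chosen with earlier results of these data known. Some genes of the Slc12 and pump families are not reported here. The other tested genes of these families are named, and from each other list the 3 called genes with the largest change in either region. Of 136 list genes, 7 had no locus of that name and are not analysed here. Where a name had several loci, only the locus with the highest mean over 24 libraries was used. This applied to Fxyd1, Car7 and Slc4a2, with 2 loci each, and to some list genes not named here. Alternatives were 3 other scalings, filters of 0 and 50, pseudocounts of 0.1 and 5, unnamed loci, all libraries in 1 fit, the rat as block, each library or rat left out and, chosen after seeing the data, edgeR 4.0.16 on the recovered fragment counts. Fits were tested on simulated data. The interaction step missed part of the changed loci there, and its required share was lowered after the result was seen. Promoters are from RefSeq (GRCr8). Python 3.11.15 with pandas 2.3.3 and matplotlib 3.10.9 served for tables and figures.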

Additional observations from a re-analysis of the deposited data

Results flagged for a closer look

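Among 96 groups of 6 values of 24 tested genes and 36 groups of marker sums, 13 held a rat far from the other 5 by Dixon's criterion, where chance gives about 1 in 20. The libraries of rat 45 account for 8 of these. In the TBI thalamus rat 45 had the highest count of Slc12a4 (6473), Slc12a7 (862), Fxyd1 (2691), Stk39 (6212) and Ano1 (879), against at most 3917, 429, 1922, 4380 and 550 in the other TBI rats. Its choroid plexus sum was 285552 there and 34932 in the TBI cortex, where it also had the highest Fxyd5 count (1285). In sham-operated rats, Slc12a3 in the thalamus of rat 32 was low (12.7, against 23.9 to 26.3), and Atp1a4 of rat 55 was high in cortex (23.8) and thalamus (44.5) against at most 5.38 and 5.25. The oligodendrocyte marker sum was high in the thalamus of rat 26 (571568, against 415433 to 458432), and the cortex identity sum was low in the cortex of rat 50 (76483, against 80213 to 82183).

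Beside the markers of cell types and regions, the TBI effect differed between the regions by the limma interaction test for 5 of the other family and pathway genes described. These were 1 of 2 other pump subunits, 2 of 15 chloride channels and 2 of 9 anion exchangers and carbonic anhydrases, against 7.26% of 15678 loci. The test called 0 of 3 other cotransporters, 0 of 5 FXYD genes, 0 of 3 NKAIN genes and 0 of 7 genes of the kinase cascade. Coded thalamus minus cortex on the log2 scale, the difference was 0.30 for Atp1b3, 1.49 for Cftr, 0.50 for Lrrc8b, -0.49 for Car7 and -0.40 for Slc4a3. The Lrrc8b call held in 22 of 22 alternatives, and that of Slc4a3 was lost only without TBI rat 24 (adjusted p = 0.0738). The calls of Atp1b3 and Cftr were each lost in 12 of 22 and that of Car7 in 10 of 22. For Car7 the adjusted p was 0.0524 with upper quartile scaling, 0.0523 with no filter on low values, 0.0656 by edgeR and up to 0.113 without single rats. The Cftr call rested on thalamic counts of 9.55 to 61.1, and its adjusted p of 0.0455 became 0.0632 with the rat as a block and 0.0644 by edgeR.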

How the results depend on the processing

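Of 644 alternatives of the fold changes of the 6 genes, 627 kept both direction and side of the threshold. No scaling turned a call of these genes. With no filter on low values Atp1b2 in cortex kept 0.15 but was no longer called (adjusted p = 0.0501). With the rat as a block, Slc12a7 in TBI rats (thalamus minus cortex) kept -0.30 and was called (adjusted p = 0.0397), and the block changed no other call of the 6 genes. Leaving out libraries gave cortical log2 fold changes of -0.11 to 0.0177 for Slc12a2, -0.17 to -0.11 for Slc12a5 and 0.13 to 0.18 for Atp1b2. The difference of the TBI effect was then -0.47 to -0.33 for Slc12a4 and -0.34 to -0.23 for Slc12a5, with 0 to 1 of the 6 genes called and 690 to 1204 loci called in all (lowest without TBI rat 24 and 695 without sham rat 50), against 1138 with all rats. The region difference was -0.0669 to 0.12 for Slc12a7 in controls, and -0.35 to -0.18 for Slc12a7 and 0.21 to 0.30 for Atp1b1 in TBI rats. Fewer libraries entered each of these fits, and no other cause was tested. Of 1119 alternatives of other genes, 1046 were alike, 53 lost and 4 gained a call and 16 turned a direction, none of them of a called value. Slc12a3 in thalamus had 0.000212 with upper quartile scaling, 0.0142 by edgeR and -0.19 to 0.0718 without single libraries. Its region difference in TBI rats was -0.00172 with TMM scaling and -0.0947 to 0.17 without single rats. Slc12a8 gave -0.23 to 0.0151 in cortex and -0.32 to 0.0504 for the difference of the TBI effect, Lrrc8b -0.00954 to 0.0747 in thalamus, Slc12a9 -0.0232 to 0.0788 for the region difference in TBI rats, and Atp1a4 -0.41 to 0.00326 for the difference of the TBI effect, which was 1.08 by edgeR.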
